A study of Mus musculus with 16 samples.

Results

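The regions described here are DNase hypersensitive sites (DHS) at the promoters of lincRNA genes, the genes of long intergenic noncoding RNAs. Joining every peak of 4 liver lists with those it touched by 1 bp or more on chromosomes 1 to 19 (mouse assembly mm9) gave 50655 regions, and a region was a lincRNA promoter DHS when it lay within 2.5 kb of an annotated transcription start site (TSS) of a lincRNA gene and more than 2.5 kb from every protein-coding TSS. In all, 277 of the 50655 regions met this rule, which used positions only. Of the rest, 657 regions lay within 2.5 kb of both kinds of TSS, 15183 lay near a protein-coding TSS alone and 34538 were distal to both. Livers were taken from 8-week-old male and female mice of a pair of inbred strains, the laboratory strain C57BL/6J (B6) and the wild-derived CAST/EiJ (CAST), with no other genotype or treatment. DNase I (32 units), an enzyme that cuts accessible DNA, was applied to purified nuclei, and 4 libraries were made for each combination of sex and strain (16 libraries). Each group has a single list, named as a merge of its 4 libraries, so there is no replicate error and no difference between lists could be tested. The peak names inside each list carry the name of a single library of the group, and whether every value rests on all 4 libraries could not be settled from the lists. The study's methods describe biological replicates made from individual livers, with a further library of each group left out for its quality. Whole-liver nuclei do not tell fewer cells with an open site apart from less opening per cell.

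LincRNA genes are transcribed by RNA polymerase II from promoters of their own, and many of the transcripts are spliced and capped. Some host small nucleolar RNAs or microRNAs in their introns, some act on neighbouring genes, and for most no function is established. An open promoter shows as a DHS because the stretch in front of the TSS is kept free of nucleosomes, and promoters rich in the dinucleotide CpG tend to be open in many tissues, whereas CpG-poor promoters and enhancers are more often restricted to particular cell types.

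Sequence around the summit, the position with the highest read pileup, is shown for 4 sets of regions. Each window is 160 bp of mm9 read 5′ to 3′ on the strand of the lincRNA, with letters of the 15 motifs described further on in capitals. The first set holds 4 regions over CpG-rich promoters that were in all 4 lists. They belong to 1700113A16Rik (chr3:87981795-87981954, minus strand), the small nucleolar RNA host gene Snhg5 (chr9:88417833-88417992, minus strand), the microRNA host gene A330023F24Rik (chr1:196802590-196802749, plus strand) and the small nucleolar RNA host gene 2410006H16Rik (chr11:62416312-62416471, plus strand).
1700113A16Rik: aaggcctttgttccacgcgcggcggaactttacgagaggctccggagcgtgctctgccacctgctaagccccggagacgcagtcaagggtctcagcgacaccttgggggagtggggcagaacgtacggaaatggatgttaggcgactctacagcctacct
Snhg5: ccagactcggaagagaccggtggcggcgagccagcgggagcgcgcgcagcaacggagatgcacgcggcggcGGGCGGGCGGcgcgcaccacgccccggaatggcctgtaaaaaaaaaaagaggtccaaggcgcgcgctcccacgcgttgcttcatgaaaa
A330023F24Rik: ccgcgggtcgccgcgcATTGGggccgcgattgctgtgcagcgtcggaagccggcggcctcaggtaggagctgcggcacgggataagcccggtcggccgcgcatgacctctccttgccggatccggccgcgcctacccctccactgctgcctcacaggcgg
2410006H16Rik: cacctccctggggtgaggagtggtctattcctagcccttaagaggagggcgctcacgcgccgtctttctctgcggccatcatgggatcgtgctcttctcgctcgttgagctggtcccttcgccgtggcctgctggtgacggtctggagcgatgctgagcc

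The second set holds regions that were strong in all 4 lists but rich in A and T. They are the promoters of Gm13421 (chr2:27395497-27395656, plus strand), with a GC content of 28.8% in the window shown, and C920006O11Rik (chr9:78023423-78023582, plus strand), with 38.1%.
Gm13421: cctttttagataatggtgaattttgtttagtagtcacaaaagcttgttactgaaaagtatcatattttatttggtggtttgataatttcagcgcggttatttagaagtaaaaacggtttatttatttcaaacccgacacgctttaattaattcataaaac
C920006O11Rik: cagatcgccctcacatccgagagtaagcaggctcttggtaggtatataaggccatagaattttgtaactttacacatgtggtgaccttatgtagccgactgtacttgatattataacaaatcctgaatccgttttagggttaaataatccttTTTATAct

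The third set holds the promoters at 2 start sites of 1 gene, D230017M19Rik, whose fold enrichment differed between the strains in opposite directions. The first lies at chr1:72283047-72283206 and the second at chr1:72290587-72290746, both on the plus strand.
D230017M19Rik, first start site: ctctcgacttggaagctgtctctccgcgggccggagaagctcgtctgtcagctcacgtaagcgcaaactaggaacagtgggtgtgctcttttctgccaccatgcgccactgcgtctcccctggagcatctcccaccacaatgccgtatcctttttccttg
D230017M19Rik, second start site: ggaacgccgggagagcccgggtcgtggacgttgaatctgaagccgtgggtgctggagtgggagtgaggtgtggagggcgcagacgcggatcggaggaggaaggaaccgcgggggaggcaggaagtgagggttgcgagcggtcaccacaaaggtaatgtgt

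The fourth set holds regions that stood out in the comparisons of the sexes or the strains. They lie at AY512931 (chr8:46148920-46149079, minus strand), E230016K23Rik (chr11:83396900-83397059, plus strand), Gm16754 (chr9:21029678-21029837, plus strand) and Gm15852 (chr1:171862176-171862335, minus strand). The E230016K23Rik window holds no CpG and the Gm15852 window holds a forkhead (FOXA) motif match.
AY512931: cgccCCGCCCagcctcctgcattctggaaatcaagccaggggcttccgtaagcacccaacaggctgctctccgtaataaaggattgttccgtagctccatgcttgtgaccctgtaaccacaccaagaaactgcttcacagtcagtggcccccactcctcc
E230016K23Rik: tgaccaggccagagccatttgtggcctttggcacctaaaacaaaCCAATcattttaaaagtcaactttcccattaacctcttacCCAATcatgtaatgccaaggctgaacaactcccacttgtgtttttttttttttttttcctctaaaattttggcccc
Gm16754: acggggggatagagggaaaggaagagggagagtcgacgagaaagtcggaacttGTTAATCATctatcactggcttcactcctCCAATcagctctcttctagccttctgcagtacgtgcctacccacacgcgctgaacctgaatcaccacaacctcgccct
Gm15852: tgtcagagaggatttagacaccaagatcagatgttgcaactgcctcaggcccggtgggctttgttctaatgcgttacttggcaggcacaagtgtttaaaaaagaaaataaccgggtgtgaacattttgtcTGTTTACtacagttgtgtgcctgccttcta

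The annotation held 1232 lincRNA genes with 1927 distinct start sites on these chromosomes. A total of 221 genes (17.9%) had a lincRNA promoter DHS, 528 genes had only regions that also lay near a protein-coding TSS, and 483 had no region within 2.5 kb. Each region was assigned to the gene of its nearest TSS, which gave 216 genes, 53 of them with 2 or more regions, among these 6 with 3 and 1 (1500017E21Rik) with 4. A TSS lay inside 131 of the 277 regions, while 146 lay beside one, 59 upstream and 87 downstream. In the regions over a TSS the summit lay at a median of -49 bp, and it was upstream of the TSS in 80 of 131. By position, 171 regions touched a lincRNA exon, 55 lay in a lincRNA intron and 51 lay outside lincRNA genes, and 212 lay outside protein-coding genes. The nearest protein-coding TSS was at a median distance of 19477 bp, with 90 regions within 10 kb and 20 more than 100 kb away. The regions just inside the limit were both 2489 bp from a TSS, those of Gm16956 and Gm16880, and the one just outside was 2514 bp from that of 2310015A10Rik.

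The 4 lists held 24467 to 38971 peaks on these chromosomes. The depth of each list, recovered from its scores, ranged from a genome-wide background of 7.94 overlapping reads in female CAST to 15.4 in male B6, and both female lists were shorter and shallower than both male lists. As a check of the labelled tissue, 9 of 10 hepatocyte genes had a promoter DHS in every list (Serpina1a had none). The same held for 1 of 10 genes of other liver cell types (Stab2) and 0 of 10 genes of other tissues. Of the remaining genes, Lyve1 of other liver cell types had a promoter DHS in male B6 alone. Pax6 and Nkx2-5 of other tissues had one in both male lists.

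The lincRNA promoter DHS were spread over the lists much as all regions were, with a smaller share in a single list. In all, 113 of the 277 regions (40.8%, Wilson 95% interval 35.2 to 46.7) were in all 4 lists, compared with 35.5% of all regions, and 80 (28.9%, interval 23.9 to 34.5) were in 1 list, compared with 35.2% of all regions. These intervals, like those that follow, cover counting error only, and reads without molecular identifiers are not independent molecules. A further 47 regions were in 2 lists and 37 in 3. Regions near protein-coding start sites alone were in all 4 lists in 59.8% of cases and distal regions in 24.2%. By gene, 103 of 216 lincRNA genes (47.7%) had at least 1 region in all 4 lists.

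Position relative to the TSS and base composition divided the regions further. Regions over a lincRNA TSS were in all 4 lists in 81 of 131 cases (61.8%, interval 53.3 to 69.7), compared with 32 of 146 (21.9%, interval 16 to 29.3) beside a TSS. For protein-coding start sites the corresponding shares were 77.6% and 25.0%. A joined region spans all its peaks, so covering a TSS was not independent of the number of lists or of peak width. Regions over a lincRNA TSS had a median width of 856 bp and those beside one 516 bp. A 300 bp window around the summit was called CpG-rich when its GC content was at least 50% and its observed to expected CpG ratio at least 0.6. Of the 277 regions, 86 (31.0%, interval 25.9 to 36.7) were CpG-rich, compared with 53.9% of protein-coding promoter regions, 2.5% of distal regions and 19% of all regions. The share was 50.4% over a lincRNA TSS and 13.7% beside one. Over the TSS, 51 of 66 CpG-rich regions (77.3%) were in all 4 lists and 30 of 65 others (46.2%), compared with 83.8% at CpG-rich protein-coding start sites. Beside the TSS, only 3 of 20 CpG-rich regions and 29 of 126 others were in all 4 lists.

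**Figure D1:**
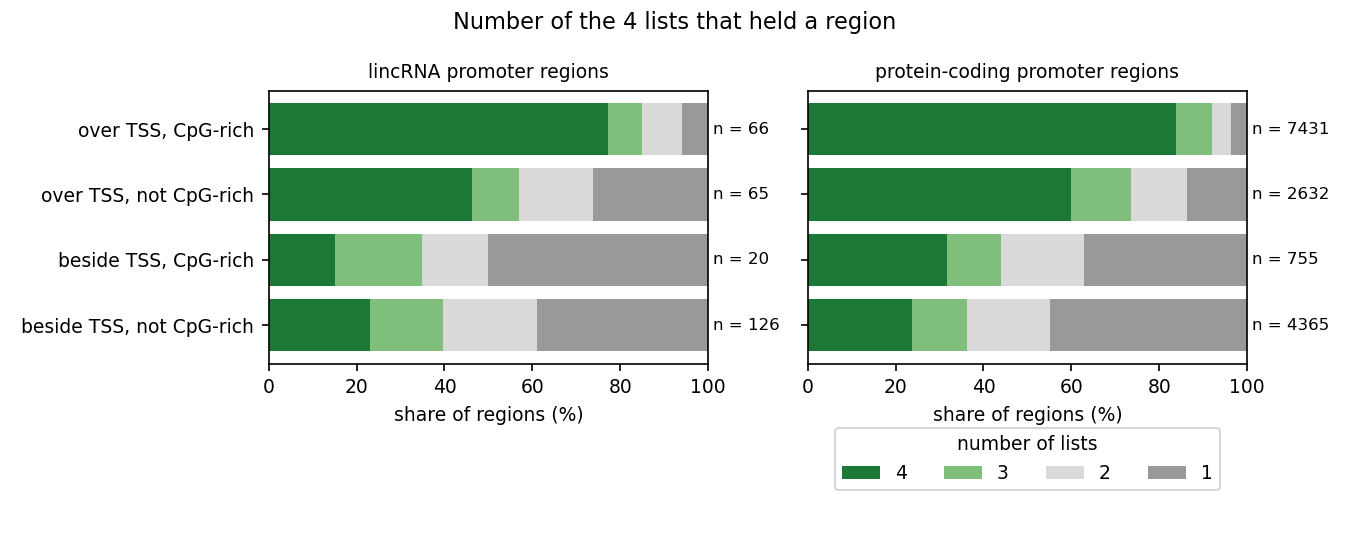
Share of regions (%, horizontal axis) found in 4, 3, 2 or 1 of the 4 lists, for regions over or beside a TSS that were CpG-rich or not, at lincRNA promoters (left) and protein-coding promoters (right), with the number of regions beside each bar. The share in all 4 lists was 77.3% for CpG-rich regions over a lincRNA TSS and 23.0% for other regions beside one.

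**Figure D2:**
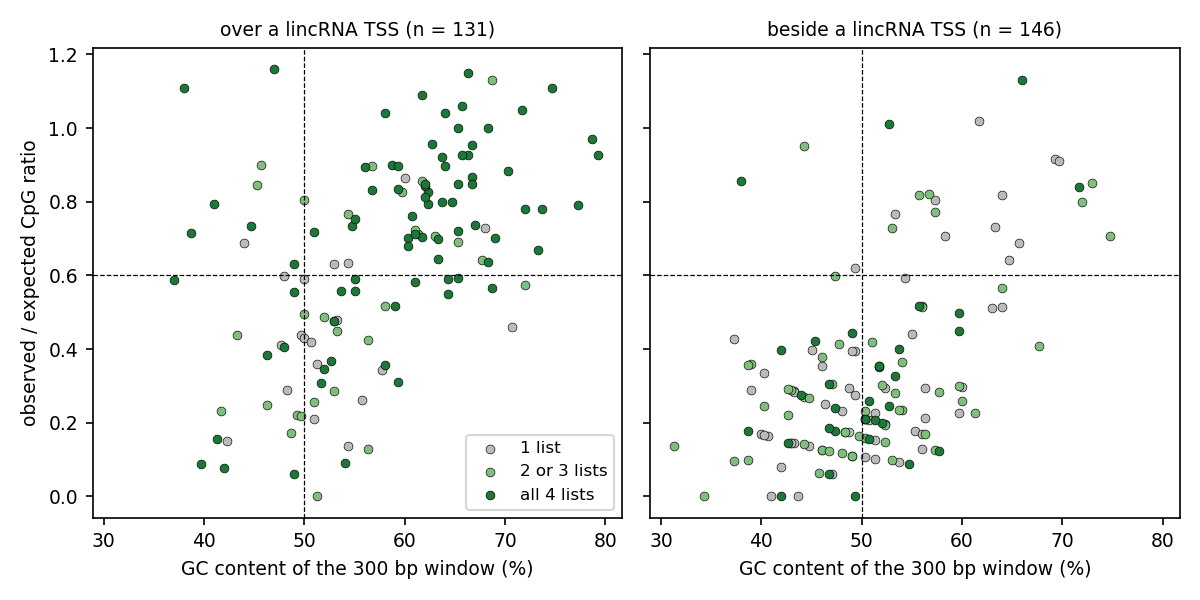
GC content (%, horizontal axis) against the observed to expected CpG ratio (vertical axis) of the 300 bp summit window of each lincRNA promoter DHS, over a TSS (left, 131 regions) and beside one (right, 146 regions), coloured by the number of lists, with dashed lines at 50% and 0.6. CpG-rich regions (upper right) made up 50.4% of regions over a TSS and 13.7% of regions beside one.

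The strength of a DHS was read from the fold enrichment at its summit, the ratio of the summit pileup to the local background, and from its percentile among all regions in its list. The median percentile of lincRNA promoter DHS was 54.9 in males and 51.8 in females of B6, and 49.7 and 59.1 in those of CAST. It was 60.6 to 66.0 for protein-coding promoter regions and 39.8 to 42.5 for distal regions in the 4 lists. Over a lincRNA TSS the medians were 63.8 to 69.6, and beside one 30.7 to 41.6. CpG-rich regions over a lincRNA TSS reached 71.9 to 79.7, compared with 68.0 to 78.0 for their protein-coding counterparts. Fold enrichment at lincRNA promoters ranged from 1.61 to 18.4.

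By mean percentile over the 4 lists, the strongest lincRNA promoter DHS was that of 1700113A16Rik (chr3:87981456-87982356), a lincRNA transcribed 9282 bp from the nearest protein-coding TSS, that of the transcription factor gene Mef2d. Its fold enrichment was 17.1 and 14.5 in male and female B6 and 18.4 and 16.4 in male and female CAST, and it covered exonic sequence at the 5′ end of the gene. C920006O11Rik (chr9:78023182-78024812), nearest to the glutathione S-transferase gene Gsta4, had 15.1, 12.3, 16.4 and 16.7 in that order of lists, which is kept for every 4 values below. Both were picked for their rank in all 4 lists, so strength in either sex and either strain was part of the choice. Their lowest value was in female B6, the list with the lowest median fold enrichment (3.28). A230028O05Rik (chr16:25058880-25059939) had 14.6, 10.2, 15.9 and 15.2, and lay 226964 bp from the next protein-coding TSS. Gm13421 (chr2:27395375-27396196), in the neighbourhood of Wdr5, which encodes a subunit of histone methyltransferase complexes, had 13.8, 11.7, 14.8 and 12.1. The Gm13421 window held a GC content of 38.0% over 300 bp with a CpG ratio of 1.11, so it missed the CpG-rich definition by its GC content.

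The region 2610307P16Rik (chr13:28611249-28612210) differed from these in that it lay in an intron, 767 bp from a start site of the gene and 376896 bp from the nearest protein-coding TSS. Its fold enrichment was 15.5 and 10.4 in male and female B6 and 13.4 and 11 in male and female CAST. Gm16639, near Enpp2 (the gene of autotaxin, which makes lysophosphatidic acid), held neighbouring regions of unequal strength. The one over its TSS (chr15:54783712-54784535) had 2.58, 2.70, 2.90 and 3.10, whereas the one 340 bp downstream of the TSS (chr15:54784843-54785885) had 12, 9.15, 14.1 and 11.6. The summit window over the TSS was the CpG-rich one of the pair (CpG ratio 0.701 against 0.260). Gm16899, 4632428C04Rik, 1110036E04Rik (near Smad6, an inhibitor of BMP signalling) and Snhg5 completed the 10 strongest, with fold enrichments of 7.92 to 14.

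Of 28 names on a list of small RNA host lincRNAs, 11 were in the annotation, 7 of these as lincRNA genes, and 5 of the 7 had a lincRNA promoter DHS, compared with 17.9% of all lincRNA genes. The names were matched as the annotation spells them, so hosts held under other names, such as Gm11974 (Snhg15) and 9430008C03Rik (Snhg17), are not in this count. Gas5 and Snhg1 made up the other two of the 7 and had regions that also lay near a protein-coding TSS. Snhg genes carry small nucleolar RNAs, which guide chemical modification of ribosomal and spliceosomal RNA, in their introns. At Snhg5 (chr9:88417316-88418293) the fold enrichment was 11.4 and 8.06 in male and female B6 and 11.1 and 8.35 in male and female CAST. At Snhg12 (chr4:131864222-131865283) it was 6.18, 4.15, 6.77 and 5.82, and at Snhg7 (chr2:26495342-26496645) 5.90, 4.09, 5.57 and 4.03. In each of these genes the male value was above the female value of the same strain before the lists were put on a common scale, as it was at the median of all shared regions. 2410006H16Rik (chr11:62415918-62417065), which holds Snord49a, Snord49b and Snord65, had 8.66, 6.33, 6.77 and 4.38. Snhg4 had 2.84, 3.30 and 3.32 in male B6, female B6 and male CAST and was not in the female CAST list.

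Across all 216 genes, 19 had an annotated microRNA or small nucleolar RNA inside the gene on the same strand. A330023F24Rik, the host of Mir29b-2 and Mir29c, members of a microRNA family that represses collagen mRNAs, had 3 regions at 2 start sites. The region over its first exon (chr1:196802393-196803392) had a fold enrichment of 7.28 and 4.73 in male and female B6 and 6.98 and 4.63 in male and female CAST. The one at the downstream start site (chr1:196842818-196843785) had 3.26, 2.64, 3.37 and 3.13, and its summit window had a CpG ratio of 0.0775, compared with 1.11 at the first exon. The third (chr1:196844075-196844571) was in 3 lists, at 3.19, 2.45 and 2.84, and was not in the female CAST list. The region of 1700016P03Rik (chr11:74986594-74987215), which holds Mir132 and Mir212, was in all 4 lists at 3.64, 2.74, 2.21 and 2.26. D230004N17Rik, named Mir100hg in RefSeq and chosen after its values were seen, was found in both male lists alone, at 2.57 and 2.36.

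Regulators of growth and imprinted genes gave a more divided picture. On a list of 8 names of growth and stress regulator lincRNAs, some of them alternative names of one gene, 4 were annotated as lincRNA genes and 3 had a lincRNA promoter DHS, while Tug1 had a region that also lay near a protein-coding TSS. At 1700020I14Rik (chr2:119419594-119420704), known in RefSeq as Oip5os1 and in the field as Cyrano, fold enrichment was 5.72 and 4.91 in male and female B6 and 7.22 and 5.79 in male and female CAST. Dleu2, a microRNA host gene, had a region at each of 2 start sites. The upstream one (chr14:62299773-62302033) was the widest of all lincRNA promoter DHS at 2261 bp, ahead of Gm12602 (2068 bp) and A330040F15Rik (1805 bp), with 5.26, 4.21, 6.11 and 4.23, and the downstream one (chr14:62267040-62268115) had 3.94, 3.26, 4.03 and 4.70. Pvt1, which lies beside the oncogene Myc, had a weak region over its TSS (chr15:61869185-61870023) at 2.60, 2.18, 3.29 and 3. That region was in no list at a stricter q. An intronic region of Pvt1 (chr15:61871269-61871540) was in the male CAST list alone, at 4.52.

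Airn is the antisense RNA that silences the paternal copy of Igf2r, and it was the only one of 5 annotated imprinted lincRNA genes on the list with a region under the rule. Its regions (chr17:12933305-12933687 and chr17:12935266-12935528) were in the male CAST list alone, at 2.38 and 2.59, were in no list at a stricter q or with lists of equal size, and lay on either side of its TSS in an intron of Igf2r. Meg3, Rian, Mirg and Nespas had no region within 2.5 kb of a TSS in any list, nor did the developmental lincRNAs Rmst and Miat. A missing region means only that no peak passed the authors' threshold there. Malat1, Neat1 and H19 are annotated as processed transcripts rather than as lincRNA genes and were outside the rule. The list of hepatocyte transcription factors held 34 of 21418 annotated protein-coding genes, and 0 of the 277 regions had one of these as its nearest, which at these numbers shows nothing particular.

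**Figure D3:**
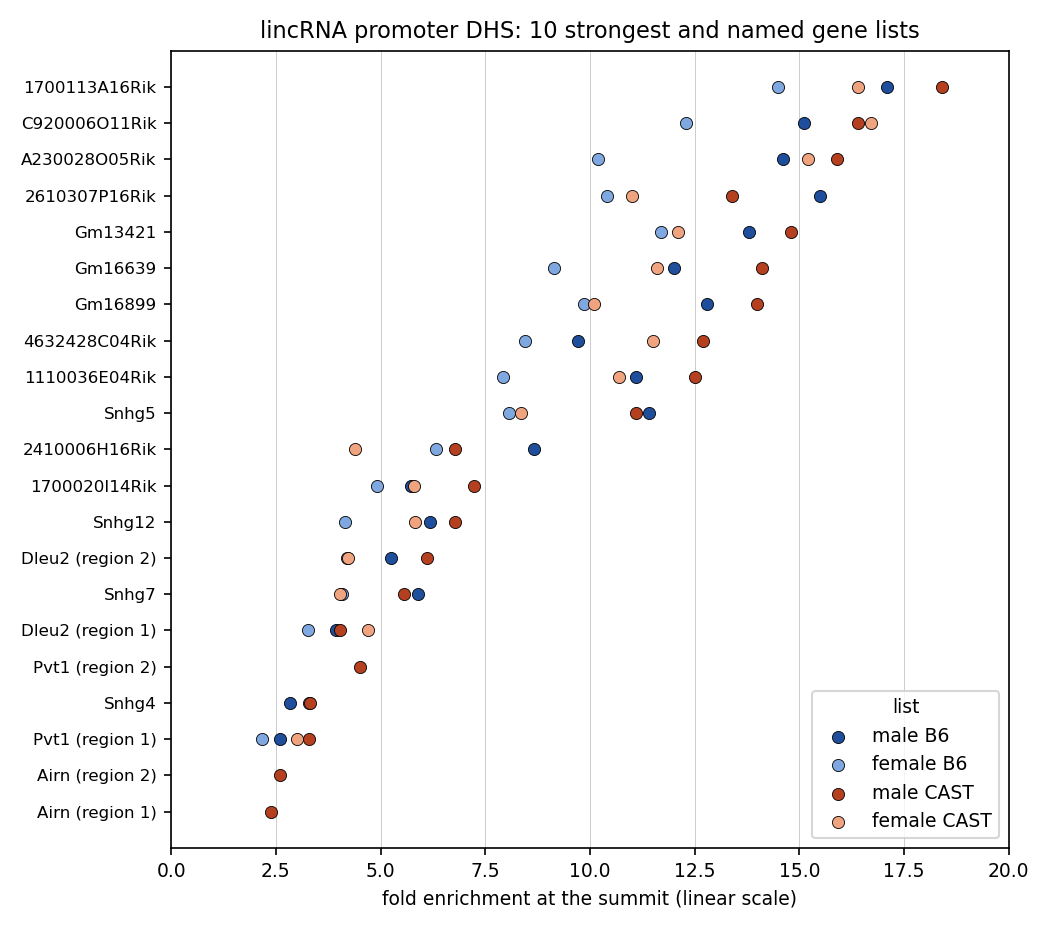
Fold enrichment at the summit (horizontal axis, linear scale) of lincRNA promoter DHS in the 4 lists, for the 10 strongest regions and those at genes on the lincRNA lists, with 1 point per list and no point where the list held no peak. Values ran from 18.4 at 1700113A16Rik in male CAST to 2.18 at the first Pvt1 region in female B6, the Airn regions had a single point each, and regions 1 and 2 of a gene are numbered by position on the chromosome.

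The comparison of the sexes asked which lincRNA promoters were open in males, in females or in both. In B6, 227 regions were in either list and 148 (65.2%, interval 58.8 to 71.1) were in both, compared with 58.5% of all regions. A further 69 regions (30.4%) were in male B6 and not female B6, compared with 36.5% of all regions, and 10 (4.41%) were in female B6 and not male B6, compared with 5.03%. In CAST, 134 of 228 regions (58.8%, interval 52.3 to 65.0) were in both lists, compared with 55.7% of all regions. There, 87 regions (38.2%) were in the male list alone, compared with 40.4% of all regions, and 7 (3.07%) in the female list alone, compared with 3.85%. The excess of male regions was close to that of the whole lists in both strains, and the female lists were the shallower ones. With every list limited to its 24467 strongest peaks, 131 of 174 lincRNA promoter DHS in either B6 list (75.3%) were in both, compared with 72.8% of all regions, and 125 of 164 in CAST (76.2%), compared with 71.7%.

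The regions missing from a female list were weaker at the median than the shared ones of the male list. In male B6, regions also found in female B6 had a median percentile of 68.2 and a median summit pileup of 120 reads, whereas those not found there had 23.4 and 47 reads. In male CAST the medians were 75.3 and 142 reads for regions also in female CAST, and 23.7 and 48 reads for the others. The strongest regions limited to both male lists were at 4930578M01Rik (chr15:98815819-98816447), with a fold enrichment of 5.01 in male B6 and 3.21 in male CAST, at Gm7677 (chr8:71707679-71708536), with 3.79 and 3.58, and at a start site of 2610035D17Rik (chr11:113062823-113063473), with 5.97 and 2.56. All 3 lay over a TSS and had a CpG-rich window, and each was in 1 list at a stricter q. By pattern, 26 regions (9.39%) were in both male lists alone, compared with 9.37% of all regions.

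Among regions in both lists of a pair, fold enrichment was compared as a ratio divided by the median ratio of all shared regions, which was 1.32 for male over female in B6 and 1.19 in CAST. In B6, 2 of 148 lincRNA promoter DHS were at least 1.5-fold higher in males, compared with 2.52% of all shared regions, and 2 were at least 1.5-fold higher in females, compared with 2.55%. In CAST, 2 of 134 were higher in males, compared with 3.26%, and 3 in females, compared with 2.56%. The totals of 4 in B6 and 5 in CAST depended on the measure, with 14 and 12 by pileup over the genome-wide background, 21 and 10 by ratios that were not centred, and 0 and 0 at a stricter q. Of 113 regions with a ratio in both strains, 67 fell on the same side of the median ratio in both, which is near the 57.7% of all such regions, and 1 was at least 1.5-fold higher in males in both, compared with 0.411%. The median centred ratio of lincRNA promoter DHS was -0.02 on the log2 scale in either strain, where the median of all regions is 0.

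The region higher in males in both strains was at AY512931 (chr8:46148344-46149190), a lincRNA 5301 bp from the TSS of the melatonin receptor gene Mtnr1a. Its fold enrichment was 7.37 and 3.55 in male and female B6 and 8.49 and 3.36 in male and female CAST. Both male values were above both female values, and the centred male over female ratio was 1.57 in B6 and 2.13 in CAST. The summit pileups were 141 reads (exact Poisson 95% interval 119 to 166), 52 (38.8 to 68.2), 131 (110 to 155) and 29 (19.4 to 41.6). With pileup over the genome-wide background in place of fold enrichment, the ratios were 1.46 and 1.78, so that the B6 ratio fell short of 1.5, and at a stricter q the region was in 2 lists. The region covered a lincRNA exon 537 bp from a TSS, and its 160 bp window held a GC box.

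The other region at least 1.5-fold higher in B6 males was at E230016K23Rik (chr11:83396662-83397424), near the chemokine gene Ccl9, with a fold enrichment of 5.66 and 2.74 in male and female B6 and 9.45 and 6.63 in male and female CAST. The centred male over female ratio was 1.57 in B6, or 1.46 by pileup, and 1.20 in CAST. In CAST, 4933404O12Rik (chr5:137394560-137395382) had 6.86 in the male and 3.58 in the female list, a centred ratio of 1.61, and 7.59 against 5.05 in B6, a ratio of 1.14. The regions at least 1.5-fold higher in females were weak in absolute terms. In B6 they were at Snhg4, given above, and beside Gm16908, with 2.25 in the male and 2.65 in the female list. In CAST, Ppp4r1l-ps had 2.48 in the male and 3.18 in the female list. Gm16908 and Ppp4r1l-ps were chosen after their values were seen. Gm14488 (chr2:30573723-30574887) had 2.90 in male CAST and 3.83 in female CAST. Gm15441 (chr3:96368123-96368884), which lies beside Txnip, the gene of an inhibitor of glucose uptake, had 2.81 in male B6 and 3.06 in female B6, a centred ratio of 0.696 that did not reach 1.5-fold. Gm12915 (0.723) and the region over the TSS of Gm16639 (0.724) were also below the median ratio in B6. Dleu2 at its downstream start site (0.720) and Abhd1 (0.725) were below it in CAST. The same direction in the other strain was part of the rule that named these regions, with ratios there of 0.894, 0.786, 0.919 and 0.957. On the male side, A930038B10Rik (1.39 in B6) and Gm16761 (1.43 in CAST) followed.

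The sex difference at Gm17721 (chr15:38313997-38314908), chosen after its values were seen, was in opposite directions in the strains. Fold enrichment was 5.53 in males and 2.89 in females of B6, but 2.69 and 3.80 in those of CAST. The centred male over female ratio was 1.45 in B6 and 0.594 in CAST, and the centred B6 over CAST ratio in males was 2.17. The region lay over a TSS, and its summit pileups in CAST were 40 reads in males and 33 in females.

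**Figure D4:**
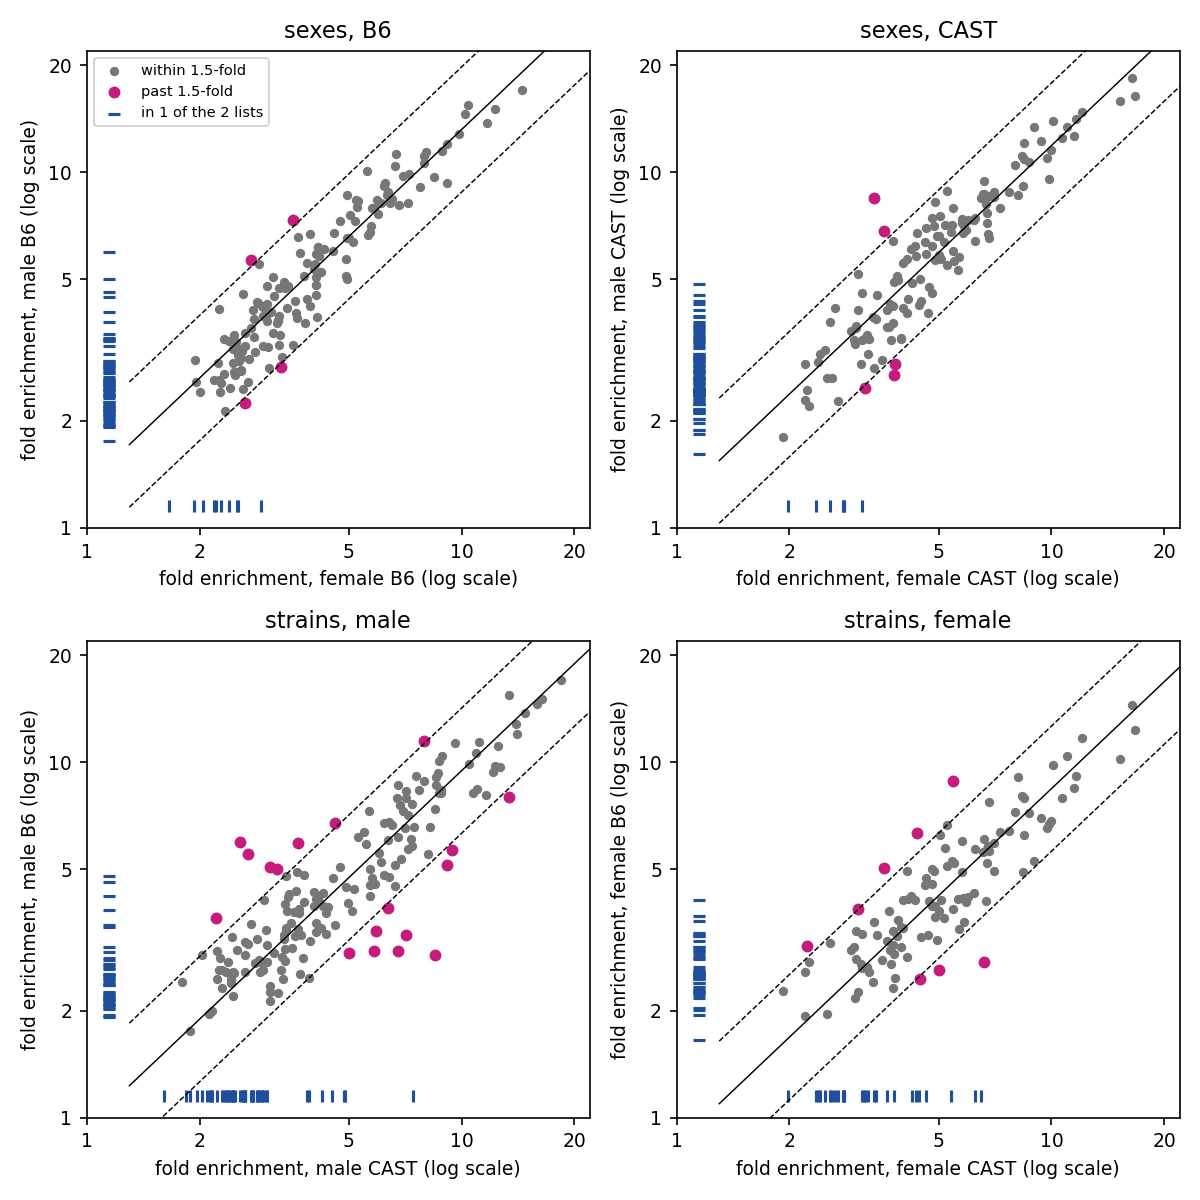
Fold enrichment of lincRNA promoter DHS in 1 list against another (log scales), for the sexes within B6 and CAST (top) and the strains within males and females (bottom), with the median ratio of all regions as a solid line and 1.5-fold either side of it dashed. Coloured points lie past 1.5-fold (4, 5, 18 and 9 regions), and ticks along the axes mark regions found in a single list of the pair.

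The comparison of the strains asked which lincRNA promoters were open in B6, in CAST or in both. In males, 175 of 263 regions (66.5%, interval 60.6 to 72.0) were in both lists, compared with 59.9% of all regions. There were 42 regions (16%) in male B6 and not male CAST, compared with 19.1% of all regions, and 46 (17.5%) in male CAST and not male B6, compared with 21.0%. In females, 114 of 185 regions (61.6%, interval 54.4 to 68.3) were in both lists, compared with 59.1% of all regions. There were 44 (23.8%) in female B6 alone, compared with 22.5% of all regions, and 27 (14.6%) in female CAST alone, compared with 18.3%. The strain lists of one sex were more alike in number than the sex lists of one strain, and regions went missing in both directions. With lists of equal size, 129 of 172 regions in either male list (75.0%) were in both, compared with 67.9% of all regions. In females 113 of 180 (62.8%) were in both, compared with 60.2%.

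Regions found in a single strain mostly lay beside a TSS and were weaker at the median than shared ones. In males the median percentile was 18.1 for those in B6 and not CAST and 22.1 for the reverse, compared with 61.3 and 59.2 for shared regions, although the highest reached 68.7 and 85.3. Of the 42 regions in male B6 and not male CAST, 13 (31.0%) lay over a TSS, and of the 46 with the reverse pattern 11 (23.9%) did, compared with 105 of the 175 shared ones. CpG-rich windows made up 11.9% and 13% of these strain-limited regions and 40.6% of the shared ones. In both B6 lists and neither CAST list there were 13 regions (4.69%, compared with 3.3% of all regions), and in both CAST lists and neither B6 list there were 6 (2.17%, compared with 3.64%), of which 3 and 1 lay over a TSS.

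The strongest of the CAST regions was near Gm15852 (chr1:171861931-171862663), at 7.44 in male CAST and 6.26 in female CAST, with summit pileups of 150 and 71 reads. It lay 1716 bp from the lincRNA TSS, outside the lincRNA, in an intron of a protein-coding gene, and the nearest protein-coding TSS was that of 1700084C01Rik at 3152 bp. Gm17284 (chr12:84963168-84963740) had 4.88 and 4.24, and Gm12898 (chr4:118893486-118894008) had 4.25 and 4.44. All 3 lay beside a TSS and had a CpG ratio of 0.304 or less. The strongest regions in both B6 lists alone were near Gm11291 (chr13:22107507-22107815), at 4.78 in male and 3.02 in female B6, Gm8378 (chr12:92922515-92923043), at 3.84 and 3.24, and at another start site of 2610035D17Rik (chr11:113033753-113034356), at 4.22 and 2.94. The 2610035D17Rik region lay 387711 bp from the nearest protein-coding TSS, that of Sox9, a transcription factor gene expressed in bile duct cells.

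Among regions shared by the strains, centred ratios past 1.5-fold were more numerous than between the sexes, whereas ratios that were not centred gave 17 in males and 12 in females, against 21 and 10 for the sexes in B6 and CAST. In males 8 of 175 were at least 1.5-fold higher in B6, compared with 4.47% of all shared regions, and 10 were higher in CAST, compared with 6.71%. In females 6 of 114 were higher in B6, compared with 3.44%, and 3 were higher in CAST, compared with 5.0%. These member counts, 4.57% and 5.71% in males and 5.26% and 2.63% in females, were close to the background or rest on few regions. The totals of 18 and 9 became 31 and 24 by pileup over the genome-wide background and 7 and 2 at a stricter q. Of 113 regions with a ratio in both sexes, 77 fell on the same side of the median ratio in both, compared with 64.9% of all such regions, 1 was at least 1.5-fold higher in B6 in both, compared with 0.872%, and 2 were in CAST, compared with 2.19%.

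D230017M19Rik held the region higher in B6 in both sexes, and a neighbouring region of the gene, chosen after its values were seen, differed the other way. At the second start site (chr1:72289926-72291555) fold enrichment was 11.5 and 8.85 in male and female B6 and 7.94 and 5.48 in male and female CAST, with centred B6 over CAST ratios of 1.53 in males and 1.92 in females. At the first start site (chr1:72282807-72283972) it was 2.87 in B6 males, with no peak in the female B6 list, and 8.50 and 6.49 in CAST males and females. The male ratio there was 0.357, or 2.80-fold higher in CAST. Both regions lay over a TSS of the same gene and in CpG-rich sequence, 5953 bp apart, so in B6 the downstream promoter was much the stronger, whereas in CAST the upstream one had the higher fold enrichment in both sexes. Summit pileups at the first start site were 46 reads in B6 males and 157 and 57 reads in CAST males and females.

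Regions higher in CAST in both sexes were at Gm16754 and E230016K23Rik. Gm16754 (chr9:21029519-21030225), whose nearest protein-coding TSS is that of the oxidative stress sensor gene Keap1, had 2.91 and 2.45 in male and female B6 and 5.02 and 4.46 in male and female CAST. Both CAST values were above both B6 values, and the centred B6 over CAST ratios were 0.611 and 0.652. The Gm16754 window held an HNF1 match, a motif of a homeodomain factor of hepatocytes. At E230016K23Rik the ratios were 0.632 in males and 0.491 in females, with the values given above. In males alone, Gm16759 (chr9:63380789-63381670), in an intron of both its lincRNA and a protein-coding gene, had 3.27 in B6 and 7.09 in CAST, and in females 3.55 and 5.83, a centred ratio of 0.723 that did not reach 1.5-fold. At 2900089D17Rik, 2 regions were higher in CAST, with ratios of 0.591 in males and 0.696 in females at one and 0.822 and 0.620 at the other. On the B6 side, 4930471M09Rik had ratios of 1.56 in males and 1.13 in females, the microRNA host gene 1700016P03Rik 1.74 and 1.44, and 2410006H16Rik 1.35 and 1.72. The start site of 2610035D17Rik limited to males had a centred B6 over CAST ratio of 2.46 in males.

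Genes with several regions could have them in the same or in different lists. Of the 53 genes with 2 or more regions, 41 had regions in different combinations of lists and 12 in the same. At least 1 region was in all 4 lists in 32 of them. These shares were not computed for protein-coding genes, so the counts show nothing particular to lincRNA genes. Neighbouring regions of a gene were separated by a median of 1115 bp. At 1500017E21Rik, named Hectd2os in RefSeq, the region at the TSS farthest upstream (chr19:36779138-36780814) had a fold enrichment of 9.12 and 7.75 in male and female B6 and 8.57 and 6.82 in male and female CAST. At the region 561 bp from another start site (chr19:36762375-36763202) the values were 4.04, 3.11, 3.80 and 2.56, and at a further one (chr19:36701354-36701899) they were 2.77, 2.58, 3.39 and 3.26. The fourth (chr19:36700263-36700751) was in the female B6 list at 2.91 and the male CAST list at 4.86 and in neither of the others. Gm16880, named Platr22 in RefSeq, had a region in all 4 lists beside its TSS (chr1:138594902-138595730) at 4.52, 4.1, 5.71 and 5.08, while the one over its TSS (chr1:138592346-138593078) was found in males alone at 2.32 and 2.29, and in no list at a stricter q or with lists of equal size.

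Single-list regions were mostly male, as they were among all regions. Of the 80 regions, 37 were in male CAST alone (13.4% of lincRNA promoter DHS, compared with 15.4% of all regions) and 29 in male B6 alone (10.5% and 14.3%). A further 7 (2.53%) were in each female list alone, compared with 3.09% of all regions for B6 and 2.52% for CAST, and 21 of the 80 lay over a TSS. The strongest in male B6 was at C430002E04Rik (chr3:41296816-41297148), named Platr4 in RefSeq, at 4.6 with a summit pileup of 142 reads, and it was followed by Gm16201 at 2.81 and 2210411M09Rik at 2.78, both in no list at a stricter q and the first also with lists of equal size. In male CAST the intronic Pvt1 region (4.52) was followed by BB218582 at 3.93 and Gm17337 at 3.02, the last in no list at a stricter q or with lists of equal size. In female B6 the leading regions were at Gm11638 (2.53), 9430008C03Rik, named Snhg17 in RefSeq (2.39), and Gm2990 (2.28). In female CAST they were at Gm5091 (3.13), Gm16953 (2.80) and Gm11974, named Snhg15 in RefSeq (2.80). All of these female regions were in no list at a stricter q. Some single-list regions lay close to a region of the same gene found in more lists. At Gm11974 such a neighbour, in all 4 lists, was 67 bp away. A neighbour in 3 lists was 55 bp away at 9430008C03Rik and 387 bp away at C430002E04Rik. The single-list Gm11974 region was the only one of the 277 with a near-identical copy of its sequence elsewhere in the genome. Uniquely mapped reads are less certain in such sequence, and the summit pileup of this region was 24 reads.

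The GC box and the ETS motif were in a larger share of the 300 bp windows over a TSS than beside one. Each motif was searched on both strands, and a match is a run of letters, not a bound factor. The GC box GGGCGG was in 79 of 277 windows (28.5%, interval 23.5 to 34.1), 42.0% over a TSS and 16.4% beside one, compared with 19.9% of all regions and 47.6% of protein-coding promoter regions. The ETS motif CCGGAAG was in 9.16% of windows over a TSS and 0.685% beside one, compared with 5.30% of all regions and 12.4% at protein-coding promoters. The E-box CACGTG was in 31 windows (11.2%, interval 8.00 to 15.4), 13.7% over a TSS and 8.90% beside one, compared with 7.14% of all regions and 8.81% of protein-coding promoter regions.

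Among motifs of factors active in liver, those of FOXA and C/EBP were less frequent in the lincRNA windows than in all regions. Their shares were near those of protein-coding promoter regions. The FOXA motif TGTTTAC was in 9 windows (3.25%, interval 1.72 to 6.06), compared with 6.58% of all regions and 7.91% of distal ones. At protein-coding promoters its share was 3.77%. The C/EBP motif TTGCNNAA was in 11.9%, 6.87% over a TSS and 16.4% beside one, compared with 17.3% of all regions and 20.3% of distal ones. At protein-coding promoters the C/EBP share was 10.8%. The STAT5 motif TTCNNNGAA, bound by the growth hormone signal STAT5 in liver, was in 10.5%, compared with 10.2% of all regions, and its stricter form TTCCNNGAA, shared by BCL6 and STAT factors and always a match to the first as well, was in 7.58%, compared with 5.99%. The HNF1 motif GTTAATNAT was in 1.81% (2.04% of all regions) and the HNF4 motif CAAAGTCCA in 1.08% (1.68%).

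The TATA box TATAAA was in 11.6% of windows (12.5% of all regions), 8.4% over a TSS and 14.4% beside one. The CCAAT box CCAAT was in 32.1% (35.4%). The core of the CTCF motif, CCANNAGGG, was in 5.78% (5.97%), with 7.63% over a TSS and 4.11% beside one. The YY1 motif AAGATGGC was in 1.81% (2.08%), with 3.05% over and 0.685% beside, the cyclic AMP response element TGACGTCA in 1.81% (1.05%) and the NRF1 motif GCATGCGC in 0.361% (1.56%). All 5 windows with the cyclic AMP response element and the 1 with the NRF1 motif lay over a TSS.

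**Figure D5:**
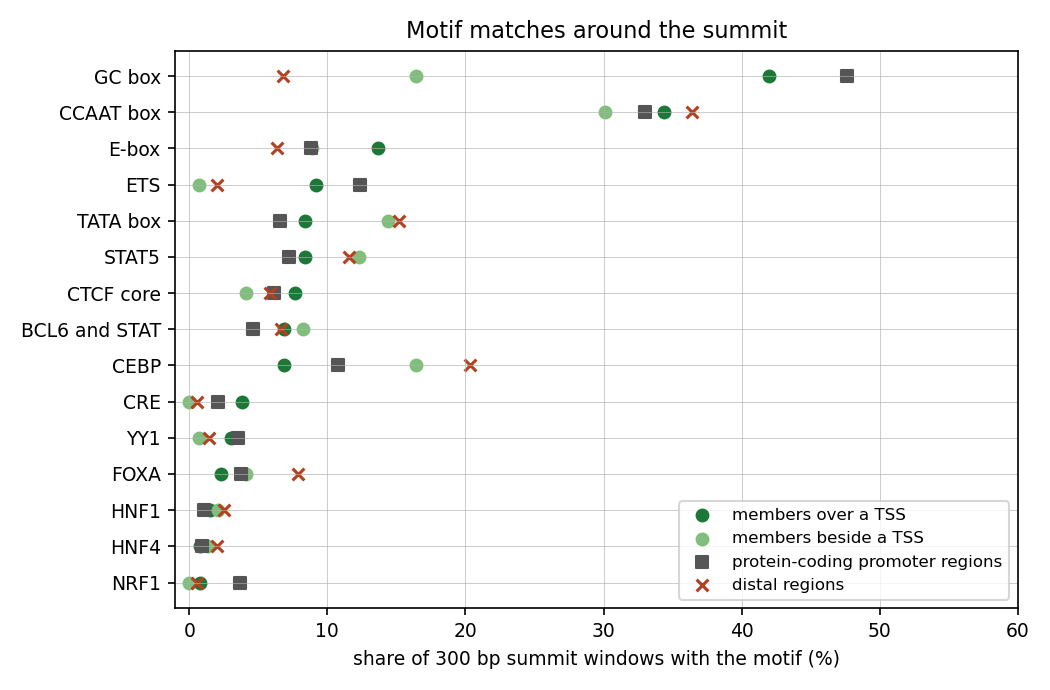
Share of 300 bp summit windows that held each of 15 motifs (%, horizontal axis), for lincRNA promoter DHS over a TSS and beside one, protein-coding promoter regions and distal regions. The GC box share was 42.0% over a lincRNA TSS and 6.82% in distal regions, and the C/EBP share was 6.87% and 20.3%.

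The gene type of these loci depended on the annotation. Of the 216 genes, 132 matched a RefSeq entry by name or identifier, and RefSeq typed 117 of them as long noncoding RNA, 9 as protein-coding, 4 as transcribed pseudogenes and 2 as pseudogenes.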

How the data were processed

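DNase-seq peak lists of male and female B6 and CAST liver were analysed, 1 list for each group, named as a merge of its 4 libraries. Per the labels and methods, the authors aligned reads with Bowtie2, kept unique reads, called peaks with MACS2 and gave positions on mm9. CAST reads were aligned to a CAST genome and converted to mm9, and blacklisted regions were removed. The deposited lists give the fold enrichment (a ratio with a pseudocount of 1), −log10 of the p-value and of the q-value, and a whole-number score for each peak.

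From these, Python 3.11.15 scripts recovered the summit pileup in reads (99.9% or more whole within 0.02), joined peaks at 1 bp on chromosomes 1 to 19, and measured distances to start sites of the GENCODE vM1 annotation on the same build. RefSeq tables of a later build gave names and gene types only. Copies elsewhere were searched with blastn 2.17.0. Ratios were centred on the median of all shared regions. Scripts were tested on simulated data. A list shows only peaks past the authors' threshold, and shorter, shallower lists miss more weak sites. CAST reads that lie on sequence absent from mm9 have no position.

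Lists, members and rules were chosen with earlier results of these data known. Regions named were those at genes on the lists, the 10 strongest in all 4 lists, the 3 strongest of each sex, strain or single-list class, the 3 largest ratios in each direction with the same direction in the other comparison, the widest, the genes with most regions, and those at the distance limit. Alternatives were another joining rule, a stricter q, lists of equal size, other distances, folds and ratios, and regions without copies.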

Additional observations from a re-analysis of the deposited data

Results flagged for a closer look

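A pair of regions were found in 1 sex of B6 and in the opposite sex of CAST, which is 0.722% of lincRNA promoter DHS, compared with 0.802% of all regions. The region 1934 bp from the TSS of Gm17461 (chr12:81986188-81986727) was in the female B6 list at a fold enrichment of 2.52 and in the male CAST list at 2.93, and in neither of the other lists. The 1500017E21Rik region (chr19:36700263-36700751) was in the female B6 list at 2.91 and in the male CAST list at 4.86. The presence of a peak thus differed between the sexes in opposite directions in the strains, and this difference was not tested. Summit pileups were 39 and 51 reads at Gm17461 and 64 and 108 reads at 1500017E21Rik.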

How the results depend on the processing

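No paired analysis was possible because each group has a single merged list, and for the same reason no library could be left out. Joining peaks only at 50% of both moved the share in all 4 lists to 34.9%, in 1 list to 39.4% and in both male lists to 56.4%. A stricter q (−log10 q of 15.7) left 152 regions, 55.6% in both sexes of B6, a median percentile of 57.6 in male CAST, and 0, 0, 7 and 2 regions past 1.5-fold (sexes in B6, sexes in CAST, strains in males, strains in females), compared with 4, 5, 18 and 9. Lists of equal size gave 53.3% in all 4 and 21.1% in 1. They gave 75.3% and 76.2% in both sexes of B6 and CAST, compared with 72.8% and 71.7% of all regions. In both male lists they gave 75%, compared with 67.9% of all regions. In the same order, a limit of 2-fold gave 0, 1, 5 and 1 regions, and pileup over the genome-wide background gave 14, 12, 31 and 24. Ratios that were not centred gave 21, 10, 17 and 12. A distance limit of 1 kb raised the CpG-rich share to 38.7%. The cause of these shifts was not tested beyond the construction of each setting. The other 80 values that answer a comparison stayed within the 95% interval of the reported value or, for counts, within 1.5 times of it, among them the fall to 199 regions with lists of equal size. Of the regions named by rule, 46 were in fewer lists at a stricter q, 11 with lists of equal size and 3 when joined at 50%, and both Airn regions, the region over the TSS of Gm16880 and those of Gm16201 and Gm17337 were in no list under the first 2 of these settings. Leaving out the 1 region with a copy elsewhere, an alternative chosen after seeing the data, gave 40.9% in all 4 lists.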
